A study of Oryctolagus cuniculus with 8 samples.

Results

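Myeloid cells, that is monocytes, macrophages, dendritic cells and granulocytes, are known by a set of genes for their identity, growth factor receptor, antigen presentation and phagocytosis. Described here are 9 such genes, given by symbol: SPI1, CSF1R, CD83, FCER1G, TYROBP, LAPTM5, AIF1, CYBB and LYZ. They were looked up by exact name among 20922 gene entries. Of the 9 genes, 8 had an entry, and all 8 passed the filter on low counts and were among the 10012 genes tested. TYROBP, an adaptor of myeloid receptors, was not analysed here.

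The libraries came from limbal epithelial cells of the New Zealand white rabbit, which is an albino breed. The limbus is the rim between cornea and conjunctiva, where the stem cells of the corneal epithelium reside. Cells were stained with the DNA dye Hoechst 33342 and sorted into the side population (SP), which pumps the dye out, and the non-side population (NSP), which keeps it. An Ion Proton instrument sequenced the total RNA of 4 samples per group. Both groups share strain, tissue and staining, and no treatment, genotype, age or gate against blood cells is given in the labels.

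Resident macrophages and dendritic cells, among them the Langerhans cells of the epithelium, are normal inhabitants of the limbus and watch the ocular surface for antigen. The transcription factor PU.1, encoded by SPI1, drives the myeloid fate. CSF1R receives the survival signal of macrophages, and short adaptors with an activation motif, such as FCER1G and TYROBP, pass receptor signals to the kinase SYK. Several of the 9 genes are shared with other blood cells: SPI1, CD83 and LAPTM5 are also expressed by B cells, LAPTM5 by T cells, and FCER1G by mast cells and NK cells.

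Libraries held 15553295 to 18931836 exon reads in SP and 20445565 to 23529101 in NSP, so 3 reads were worth 0.136 to 0.15 CPM in NSP, where CPM are reads scaled to the size of the library. Levels are CPM with TMM factors, and replicates are numbered in column order. Fold changes are log2 SP over NSP with standard errors, from limma-voom across all genes, with p-values adjusted by the Benjamini-Hochberg method. Whether each replicate is another animal is not in the labels, and the p-values reflect only how far these samples spread, which can be technical. In bulk RNA, more cells of a type and more RNA per cell cannot be told apart. Of all genes tested, 17.6% were called higher in SP and 13.3% lower at an adjusted p of 0.05, around a median change of 0.11 on the log2 scale. The 4 SP libraries lay above all 4 NSP libraries for 18.6% of genes.

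Of the 8 measured genes, 7 were higher in SP, 0 were lower, and LYZ was not called. The same 7 genes had SP libraries that all lay above the NSP libraries. Their limma-voom log2 fold changes ran from 3.07 for CYBB to 8.24 for FCER1G, and the median over the 8 genes was 4.98. Which gene changed most depended on the fit. With limma-trend on log2(CPM + 0.5) the 7 genes ran from 2.56 for CYBB to 6.89 for LAPTM5, with FCER1G at 5.91. The filter bears on this count: SPI1 passed it through the SP libraries alone, with 0 NSP libraries at the threshold, and FCER1G had 1 NSP library there and AIF1 3. A gene that passed through SP alone had to be higher in SP to be measured. Among the gene lists given further on, this held for 1 measured gene each of the colony-stimulating factor, ITAM, oxidase, dendritic and granulocyte and mast cell lists, for 2 of the macrophage list and for more in others, as stated there, so the counts and medians of these lists lean towards rises.

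**Figure D1:**
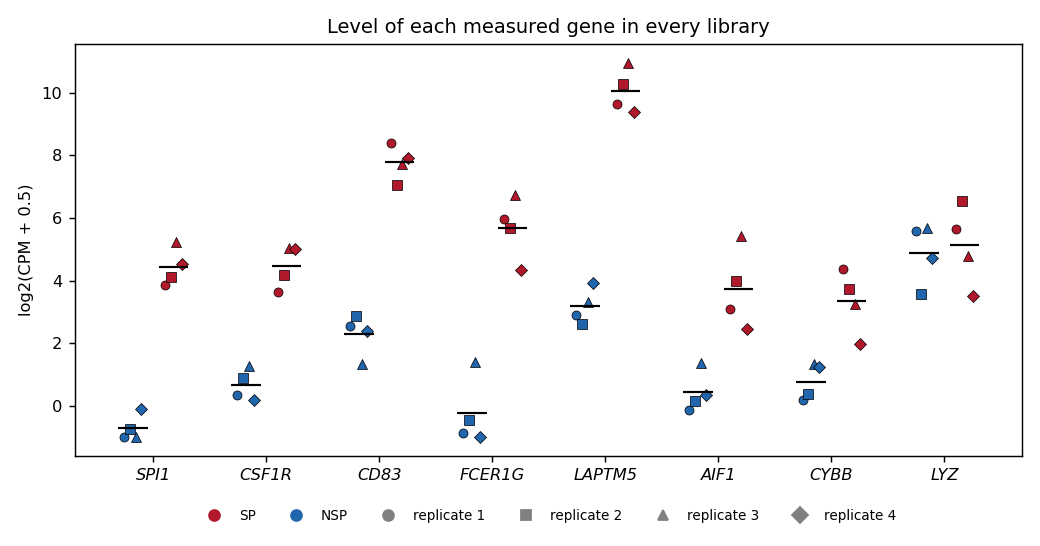
Level of the 8 measured genes in each library as log2(CPM + 0.5), with red points for SP, blue points for NSP, marker shapes for replicates and black lines for group means of the log values. The SP points lie above all NSP points for every gene except LYZ, whose groups overlap.

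SPI1, the master transcription factor gene of myeloid and B cell development, was nearly confined to the SP libraries. It stood at 14.0, 16.9, 37.4 and 22.7 CPM in SP replicates 1 to 4. In NSP it was at 0, 0.0928, 0 and 0.437 CPM, or 11 reads in all 4 libraries together against 1612 in SP. Every SP library was far above every NSP library, and NSP replicate 4 alone held 82.5% of the NSP signal. The means were 22.7 ± 10.4 and 0.1325 ± 0.208 CPM (SD, n = 4 each), a 171.5-fold ratio. The log2 fold change was 8.15 ± 1.15 (limma-voom adjusted p = 0.000695). It was 5.15 with limma-trend on log2(CPM + 0.5), a scale that understates changes of low genes.

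Of 21 listed transcription factors of myeloid and related blood cells, 12 had an entry and 11 were measured, of which 5 rose, 0 fell and 6 did not pass. Of the 5, 3 (SPI1, GFI1 and TFEC) had passed the filter through SP alone. Besides SPI1, the rises with the smallest p were those of FLI1 and GFI1. FLI1, which is shared by blood and endothelial cells, rose by 9.86 ± 1.52 (limma-voom adjusted p = 0.00116). GFI1, a transcriptional repressor that acts in granulocyte and lymphoid development, rose by 7.19 ± 1.38 (limma-voom adjusted p = 0.00334). With limma-trend FLI1 moved to 7.70 and GFI1 to 3.88. The other two, outside the naming rule and picked after their values were seen, were TFEC, a macrophage relative of MITF, and the inducible nuclear receptor NR4A3. TFEC had 3 NSP reads against 192 in SP, a 75.9-fold ratio (exact 95% counting interval 25.6 to 371). NR4A3 rose by 1.98 ± 0.57 (adjusted p = 0.0235) and lost its call without NSP replicate 2, 3 or 4 (adjusted p = 0.0598, 0.0646 and 0.0504). The median log2 fold change was 0.48 for the list against 0.11 for all genes. IRF8, IRF4 and CEBPB were not analysed here.

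CSF1R, the receptor for CSF1 and IL34 on monocytes and macrophages, was low but present in every library. SP replicates held 11.9, 17.6, 32.5 and 32.01 CPM, and NSP replicates held 0.768, 1.345, 1.90 and 0.6315 CPM. The lowest SP library thus stood well above the highest NSP library. The means were 23.5 ± 10.4 and 1.16 ± 0.583 CPM (SD, n = 4 each), a 20.2-fold ratio, and the log2 fold change was 4.31 ± 0.68 (limma-voom adjusted p = 0.00132).

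The ligands of CSF1R did not pass the test. CSF1 was at 51.3 ± 14.4 CPM in SP and 38.7 ± 16.8 in NSP, with 0.46 ± 0.37 as its log2 fold change (limma-voom adjusted p = 0.386). IL34 was at 14.9 ± 9.22 and 9.38 ± 1.33 CPM, also 0.46 ± 0.41 (adjusted p = 0.419). The libraries of both groups overlapped for each ligand, and IL34 moved to -0.02 without SP replicate 4. The granulocyte factor CSF3 stood at -0.19 ± 0.50 (adjusted p = 0.809), with 7.26 ± 3.19 CPM in SP and 7.93 ± 3.42 in NSP. Its sign turned without SP replicate 1 (0.25) or NSP replicate 3 (0.06) and with quality weights (0.17).

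Other receptor chains of the colony-stimulating factor list rose as CSF1R did. CSF2RB, the signalling chain shared by the receptors for GM-CSF, IL3 and IL5, was at 42.6, 30.3, 50.1 and 74.4 CPM in SP and at 0.678, 0, 0 and 0.0486 CPM in NSP. Its log2 fold change was 9.29 ± 1.18 (limma-voom adjusted p = 0.000428), and 6.22 with limma-trend. IL3RA, the IL3-binding chain carried by plasmacytoid dendritic cells, basophils and endothelium, rose by 6.0 ± 1.60 (adjusted p = 0.0168), with SP replicate 3 at 23.3 CPM and the other SP libraries at 1.45 to 4.58 CPM. The IL3RA call was lost without NSP replicate 2 or 3 (adjusted p = 0.0734 and 0.0718), and its value moved to 3.05 with limma-trend. In all, 3 of 6 measured receptors and ligands rose and 0 fell, with a median log2 fold change of 2.39. Of the 3, IL3RA had passed the filter through SP alone, so it had to be higher in SP to be measured. CSF3R and FLT3 were not analysed here.

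CD83, a surface protein of mature dendritic cells that stabilises MHC class II and CD86 and is also induced on activated B and T cells, was among the most abundant of the 8 genes in SP. SP replicates held 333, 132.6, 212.4 and 242.1 CPM and NSP replicates 5.38, 6.77, 2.00 and 4.71 CPM. No NSP library came near the SP range, and replicate 1 was the highest SP library, where SPI1 and CSF1R were at their lowest. The means were 230 ± 82.7 and 4.72 ± 2.00 CPM (SD, n = 4 each), a 48.8-fold ratio. The log2 fold change was 5.64 ± 0.50 (limma-voom adjusted p = 0.000106).

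Among 32 listed dendritic and Langerhans cell genes, 21 had an entry and 14 were measured, of which 10 rose, 0 fell and 4 did not pass. The median log2 fold change was 4.17. After CD83, the smallest p-values belonged to CD74 and CD80. CD74, the class II invariant chain, was at 4797 ± 1794 and 264 ± 167 CPM (4.32 ± 0.46, limma-voom adjusted p = 0.000217). CD80, a costimulatory ligand for T cells, was at 48.5 ± 13.8 and 3.15 ± 1.40 CPM (4.02 ± 0.45, adjusted p = 0.000287). B cells carry both genes as well. Other genes of this list were picked after their values were seen. Among them, CCR7 rose by 6.58 ± 1.13 and CCL22 by 5.84 ± 1.10 (limma-voom adjusted p = 0.00192 and 0.00312). The cells behind these rises were not tested. Some genes of single dendritic subsets had few or no reads. CD1A, a Langerhans cell marker in several species, and CLEC9A, of cross-presenting dendritic cells, had 0 reads in all SP libraries, and XCR1, of the same cross-presenting cells, had 32 SP reads and 0 NSP reads.

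FCER1G, the common gamma chain of Fc receptors and a carrier of the activation motif called ITAM, was high in SP and nearly absent from 3 of the 4 NSP libraries. It stood at 62.1, 50.3, 106.1 and 19.8 CPM in SP and at 0.0452, 0.232, 2.15 and 0 CPM in NSP. The NSP values came mostly from replicate 3, which held 43 of the 49 NSP reads and 88.6% of the NSP signal. Even so, the lowest SP library was well above it. The means were 59.6 ± 35.8 and 0.6075 ± 1.035 CPM (SD, n = 4 each), a 98.1-fold ratio. The log2 fold change was 8.24 ± 1.61 (limma-voom adjusted p = 0.00372), and 9.44 without NSP replicate 3. It was 5.91 with limma-trend.

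Most measured ITAM signalling genes rose in SP, as FCER1G did. Of 27 listed adaptors, receptors and kinases, 17 had an entry and 13 were measured, of which 10 rose, 0 fell and 3 did not pass, with a median log2 fold change of 4.34. SYK, the kinase that binds the phosphorylated motif, was at 129.8, 30.5, 60.1 and 62.6 CPM in SP and 0.181, 1.345, 0 and 1.02 CPM in NSP. Its log2 fold change was 7.71 ± 1.37 (limma-voom adjusted p = 0.00235), and 5.99 to 7.73 over the other fits of all libraries. All SP libraries lay above all NSP libraries for SYK as they did for FCER1G, with the highest SP value in replicate 1 rather than 3.

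FGR, a Src-family kinase typical of phagocytes, had 3747 reads in SP and 2 in NSP, a 2222-fold ratio (exact 95% counting interval 615 to 18350). The adaptor LCP2 rose by 6.97 ± 0.86, and BTK, a kinase of B and myeloid cells, by 5.94 ± 1.05 (limma-voom adjusted p = 0.000376 and 0.00227). With limma-trend LCP2 was at 6.22 and BTK at 4.61. Smaller changes belonged to HCLS1, a substrate of these kinases (3.24 ± 0.37, adjusted p = 0.000313), and to the inhibitory phosphatase PTPN6 (1.40 ± 0.24, adjusted p = 0.00201). LCP2, BTK, HCLS1 and PTPN6 also work in lymphocytes. The cells behind the reads of FGR and of these genes were not tested.

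TREM1, a receptor of monocytes and neutrophils that signals through TYROBP, rose by 4.34 ± 1.11 (limma-voom adjusted p = 0.0139), a call lost without NSP replicate 1 (3.39, adjusted p = 0.0513). Its SP libraries held 8.20, 6.05, 16.3 and 2.43 CPM and its NSP libraries 0.0452, 0.186, 1.55 and 0.680 CPM. SIRPA, the inhibitory receptor for CD47, rose by only 1.14 ± 0.36 (adjusted p = 0.035) with overlapping groups. That call was lost with median-ratio factors (adjusted p = 0.0585), with upper-quartile factors (0.0718) and without any library except SP replicate 1 or NSP replicate 2 (0.0599 to 0.105), and its value was 0.67 without SP replicate 4. The members that did not pass were LYN (0.68 ± 0.45, adjusted p = 0.277, or 1.14 and 0.0386 with quality weights), PIK3AP1 (0.30 ± 0.44, adjusted p = 0.648) and PLCG2 (-0.13 ± 0.30, adjusted p = 0.78, or 0.14 without NSP replicate 3).

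Because FCER1G is also a chain of the IgE receptor, the other chains of that receptor were read beside it. MS4A2, its beta chain, had 817 SP reads and 1 NSP read, a 969-fold ratio (exact 95% counting interval 173 to 38320). FCER1A, the IgE-binding chain, was under the filter with 172, 7, 27 and 0 reads in SP and 0 in NSP, so most of its reads came from SP replicate 1. Both chains, like FCER1G, had their lowest SP level in replicate 4. So did LAPTM5, AIF1, CYBB, LYZ and the leukocyte gene PTPRC, while GATA2 of the mast cell list was highest there (254.7 CPM). The part of mast cells in the FCER1G level was not tested.

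The granulocyte and mast cell list had 8 measured genes of 19, of which 6 rose and 0 fell, with a median log2 fold change of 2.74. Its smallest p-values belonged to KIT, the stem cell factor receptor that mast cells share with melanocytes (2.61 ± 0.28, limma-voom adjusted p = 0.000213), to MS4A2, and to GATA2, a factor of mast cells, progenitors and endothelium (7.67 ± 1.62, adjusted p = 0.00558). Other genes of this list, picked after their values were seen, varied widely. The neutrophil granule genes MPO and MMP8 had 1 and 0 reads in SP, while the granule gene LTF, which glands also secrete, had 1126 reads in SP and 3985 in NSP and did not pass (-4.16 ± 1.77, limma-voom adjusted p = 0.101, or -5.05 and 0.0499 without NSP replicate 1). The neutrophil receptor gene CXCR2 had 140 SP reads and 0 NSP reads. S100A9, a calcium-binding protein of neutrophils, monocytes and stressed epithelium, rose by 1.97 ± 0.54 and its partner S100A8 by 2.86 ± 0.99 (limma-voom adjusted p = 0.0201 and 0.0491). S100A9 did not pass without NSP replicate 2 (adjusted p = 0.051) and with quality weights (0.0638). S100A8 did not pass with median-ratio and upper-quartile factors (adjusted p = 0.0532 and 0.0598) and when SP replicate 1, SP replicate 3 or an NSP replicate was left out (0.0642 to 0.14). The mast cell protease gene CPA3 had 7 SP reads, all in replicate 3.

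LAPTM5, a lysosomal membrane protein of blood cells, was the most abundant of the 8 genes in SP. SP replicates held 797, 1250, 1990 and 669 CPM, and NSP replicates held 7.004, 5.61, 9.36 and 14.5 CPM. All NSP libraries had a low but clear level, resting on 762 reads. The means were 1177 ± 597 and 9.13 ± 3.92 CPM (SD, n = 4 each), a 128.9-fold ratio, and the log2 fold change of 6.97 ± 0.47 had the smallest p of the 8 genes (limma-voom adjusted p = 5.63e-05).

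Other lysosomal genes moved in both directions. Of 19 measured lysosomal genes of phagocytes (25 listed), 5 rose, LAPTM5 among them, 2 fell and 12 did not pass, against 17.6% higher and 13.3% lower over all genes. Their median log2 fold change was 0.38, beside 0.11 over all genes. The smallest p-values after LAPTM5 belonged to the lipase LIPA (1.82 ± 0.23, limma-voom adjusted p = 0.000443) and to CTSS, a protease of antigen-presenting cells that processes CD74 (2.67 ± 0.40, adjusted p = 0.000931). PSAP, which supplies activators of lipid breakdown, fell by 1.49 ± 0.35 (adjusted p = 0.00936), with 1089 ± 295 CPM in SP against 3161 ± 1251 in NSP. GM2A, another such activator, fell by 0.80 ± 0.27 (adjusted p = 0.0421), a call that was lost without SP replicate 1, 2 or 3 or NSP replicate 2, 3 or 4 (adjusted p = 0.0657 to 0.111).

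AIF1, the calcium-binding protein IBA1 that is used to stain macrophages and microglia, varied most between SP libraries among the called genes. It stood at 8.03, 15.4, 42.3 and 4.93 CPM in SP and at 0.407, 0.603, 2.05 and 0.777 CPM in NSP. The groups did not overlap, but SP replicate 3 held 59.8% of the SP signal and NSP replicate 3 held 53.5% of the NSP signal. The means were 17.7 ± 17.0 and 0.96 ± 0.744 CPM (SD, n = 4 each), an 18.4-fold ratio. The log2 fold change was 4.03 ± 1.03 (limma-voom adjusted p = 0.0138). Without NSP replicate 1 it was 3.57 and no longer passed (adjusted p = 0.0511).

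CYBB encodes the membrane catalytic subunit of the phagocyte NADPH oxidase, which makes superoxide to kill microbes. It stood at 20.4, 12.9, 9.07 and 3.40 CPM in SP and at 0.633, 0.789, 2.00 and 1.85 CPM in NSP. The groups came close to each other but did not overlap, with SP replicate 4 the lowest of its group and NSP replicate 3 the highest. The means were 11.4 ± 7.12 and 1.32 ± 0.7065 CPM (SD, n = 4 each), an 8.68-fold ratio. The log2 fold change was 3.07 ± 0.78 (limma-voom adjusted p = 0.0137), and 2.63 without NSP replicate 1, where it did not pass (adjusted p = 0.0598).

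NCF4, the cytosolic oxidase subunit p40phox, was the only other measured gene of the 7 listed for the oxidase. It had 605, 271, 553 and 625 reads in SP and 3, 0, 0 and 0 in NSP, an 812-fold ratio (exact 95% counting interval 277.5 to 3941). NCF4 was lowest in SP replicate 2, while CYBB was lowest in replicate 4, so the order of the SP libraries differed between these subunits of one enzyme. CYBA and NCF1 were not analysed here.

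LYZ, the secreted antibacterial enzyme lysozyme of macrophages, neutrophils and tear-forming epithelia, did not differ beyond its spread. SP replicates held 50.1, 93.6, 27.2 and 10.9 CPM and NSP replicates 47.4, 11.5, 51.0 and 25.7 CPM. The groups overlapped almost fully, with the lowest level of all in SP replicate 4. The means were 45.4 ± 35.9 and 33.9 ± 18.7 CPM (SD, n = 4 each), and the log2 fold change was 0.30 ± 0.65 (limma-voom adjusted p = 0.763). Its sign turned without SP replicate 2 (-0.19) or NSP replicate 2 (-0.15), and with quality weights it was 1.01 (adjusted p = 0.189). In the RefSeq gene table of assembly mOryCun1.1, 1 unnamed protein-coding gene overlaps LYZ and 4 unnamed protein-coding genes lie between its neighbours CPSF6 and YEATS4. How reads shared with such genes were counted is not given in the sources used here, so the LYZ level is uncertain.

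**Figure D2:**
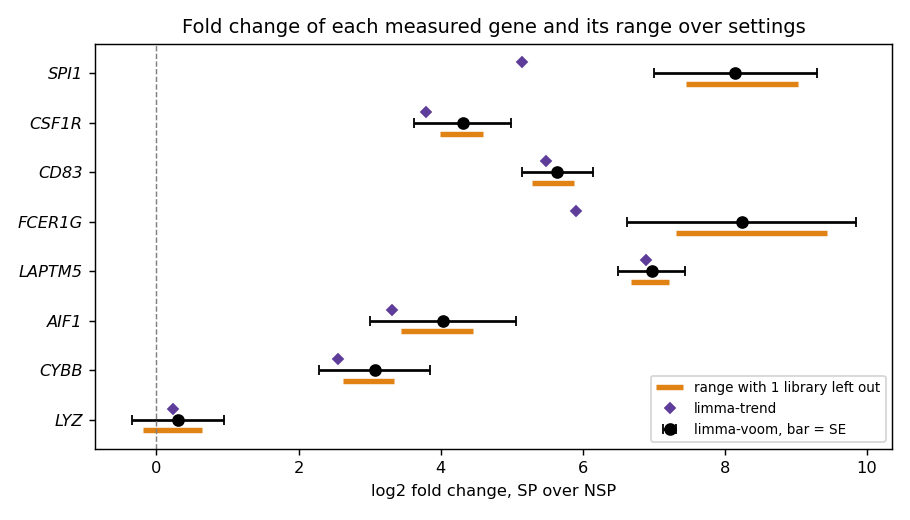
Log2 fold change of the 8 measured genes, SP over NSP, with black points and bars for limma-voom and its standard error, orange lines for the range over fits that leave out 1 library, and purple diamonds for limma-trend. The changes of 7 genes stay to the right of 0 in each of these fits, from 2.56 for CYBB with limma-trend to 9.44 for FCER1G without NSP replicate 3, while the LYZ range spans 0, from -0.19 to 0.64.

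The authors' deposited table gives an EDGE test of the same libraries. By its corrected p under 0.05, 7.58% of all 20922 entries were higher in SP. Only 13015 of these entries had a read, so this share has another base than the 17.6% of the 10012 genes tested with limma-voom. The authors' deposited table calls the same 7 genes higher in SP, and not LYZ. The largest fold sizes in the authors' deposited table were 151.5 for SPI1 (EDGE corrected p = 4.57e-13), 117.1 for LAPTM5 (corrected p = 9.08e-34) and 88.7 for FCER1G (corrected p = 1.13e-07). CYBB had the smallest fold size of the called genes in the authors' deposited table, 7.91 (corrected p = 0.000726).

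Levels of different genes were compared per kilobase of the exon length given in the table. In SP, LAPTM5 led with 545 CPM per kilobase (310 to 923 over the 4 libraries), followed by CD83 at 104.2 (60.1 to 150.9) and FCER1G at 84.6 (28.1 to 150.8). LYZ followed at 39.1 (9.39 to 80.6), AIF1 at 27.8 (7.75 to 66.5) and SPI1 at 21.4 (13.1 to 35.1) CPM per kilobase. CSF1R at 7.51 (3.81 to 10.4) and CYBB at 6.57 (1.96 to 11.7) CPM per kilobase came last. In this order LAPTM5 stood clear of CD83 and SPI1 clear of CSF1R, while the library ranges of the other neighbours overlapped.

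In NSP the order of levels was another. LYZ led with 29.2 CPM per kilobase (9.87 to 43.9), above the ranges of all other 7 genes. LAPTM5 followed at 4.23 (2.60 to 6.73) and CD83 at 2.14 (0.907 to 3.07) CPM per kilobase, and SPI1 was last at 0.125 (0 to 0.411). From LAPTM5 down, the library ranges of neighbours overlapped.

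The called genes did not share one profile over the SP libraries. SPI1, LAPTM5, AIF1 and FCER1G were highest in SP replicate 3, with 41.1%, 42.3%, 59.8% and 44.5% of their summed SP signal. CSF1R was nearly equal in replicates 3 and 4 (34.6% and 34.0%). CD83 and CYBB were highest in replicate 1 (36.2% and 44.6%). SP replicate 4 held the smallest share of LAPTM5, AIF1, FCER1G and CYBB, at 14.2%, 6.98%, 8.30% and 7.44%, but not of SPI1, CSF1R or CD83.

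Marker lists of other cells had profiles of their own over the same libraries. The summed T and NK list was highest in replicate 3 (44.0%) and lowest in replicate 1 (10.7%), the B and plasma cell list highest in replicate 4 (37.0%) and the endothelial list in replicate 4 (54.1%). Relative to PTPRC, which encodes the leukocyte antigen CD45, FCER1G was the steadiest of the 8 genes, at ratios of 0.252, 0.185, 0.2805 and 0.2365 in SP replicates 1 to 4. CSF1R was the least steady, with a 7.92-fold range of its ratio to PTPRC, and its highest ratio was in replicate 4. This order depended on the reference gene. Relative to LAPTM5, SPI1 was the steadiest (2.52-fold range), FCER1G had a 2.63-fold range and CYBB was the least steady (5.61-fold). With 4 libraries these profiles are descriptions only.

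**Figure D3:**
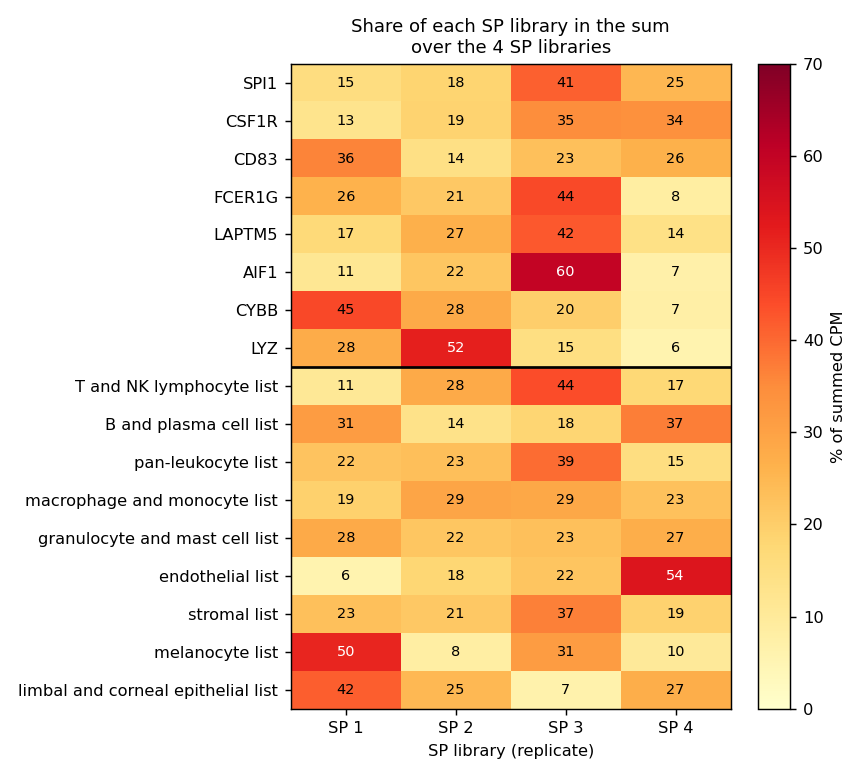
Share of each SP library in the summed CPM over the 4 SP libraries, in percent, for the 8 measured genes (above the line) and for summed marker lists (below it). SP replicate 3 holds the largest share of SPI1, LAPTM5, AIF1 and FCER1G and of the T and NK list, SP replicate 1 that of CD83 and CYBB, and SP replicate 4 that of the endothelial list.

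Genes known from tissue macrophages went different ways in SP. Those in this paragraph were picked after their values were seen. The complement genes C1QA, C1QB and C1QC, which tissue macrophages express strongly, had 5 reads in all SP libraries together, all of C1QC in replicate 2. In NSP they had 45 reads, all in replicate 3, the library that also held most NSP reads of FCER1G. The mannose receptor MRC1 had 7 SP reads and 0 NSP reads, and VSIG4, a complement receptor, had 0 SP reads and 20 NSP reads, which came from replicates 2 and 4. TREM2, which signals through TYROBP, had 13 SP reads, all in replicate 2, and 8, 4, 58 and 8 reads in NSP. The counts of these genes are too low for a test. SIGLEC1, the sialic acid receptor of resident macrophages, was measured and rose by 3.44 ± 0.87 (limma-voom adjusted p = 0.0134), with 192, 405, 623 and 1060 reads in SP and 17, 151, 39 and 64 in NSP. STAB1, a scavenger receptor of macrophages and sinusoidal endothelium, rose by 7.24 ± 2.29 (adjusted p = 0.0354), a call lost without SP replicate 3 or any NSP replicate (adjusted p = 0.0538 to 0.0906). LYVE1, shared by macrophages and lymphatic endothelium, had 249 SP reads and 14 NSP reads and did not pass (4.29 ± 2.24, adjusted p = 0.173), though it passed without SP replicate 1 (adjusted p = 0.00698), a library with 0 of its reads. SIGLEC1, STAB1 and LYVE1 had most reads in SP replicate 4, where the summed endothelial list and the B and plasma cell list were also highest. The cells behind these reads were not tested.

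Of 43 listed macrophage and monocyte genes, 28 had an entry and 17 were measured, of which 9 rose, 0 fell and 8 did not pass, with a median log2 fold change of 2.93. The 11 genes with an entry that were not measured had 297 reads in SP and 181 in NSP, 93 of them in NSP replicate 3. The smallest p-values among the rises belonged to CCR1, CD53 and PLEK. CCR1, a chemokine receptor of monocytes and T cells, had 548 SP reads and 0 NSP reads and was at least 217-fold higher against 3 reads over the NSP group. CD53, a tetraspanin of all leukocytes, rose by 6.77 ± 0.82 (limma-voom adjusted p = 0.000365), and PLEK, a protein kinase C substrate of platelets and leukocytes, by 2.76 ± 0.54 (adjusted p = 0.00379).

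A pair of classical monocyte and macrophage markers was added after their values were seen. CD14, the endotoxin co-receptor, was at 24.8, 61.8, 99.8 and 141.1 CPM in SP and 10.7, 5.94, 9.11 and 10.3 CPM in NSP (2.93 ± 0.60 on the log2 scale, limma-voom adjusted p = 0.00481). CD68, a lysosomal glycoprotein of macrophages, was at 37.6 ± 8.33 and 22.4 ± 7.64 CPM and did not pass (0.79 ± 0.31, adjusted p = 0.0737). CD68 passed without NSP replicate 3 (0.99, adjusted p = 0.04) and with quality weights (1.02, adjusted p = 0.012). CD163 and the integrin genes ITGAM and ITGAX were not analysed here.

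**Figure D4:**
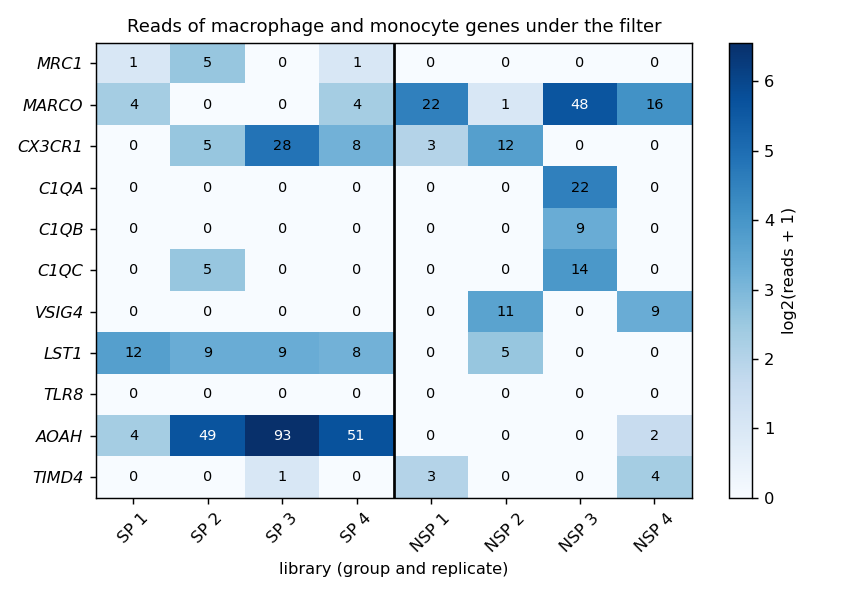
Reads of the 11 macrophage and monocyte genes that were under the filter, by library, printed in each cell and coloured on a log2(reads + 1) scale. The C1Q genes are at 0 in all SP libraries except for 5 reads of C1QC in SP replicate 2, and their 45 NSP reads all lie in NSP replicate 3.

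Markers of other cells moved with the myeloid genes. All 14 measured T and NK genes of 28 listed rose, with a median log2 fold change of 10.30, or 10.11 with genes lacking any NSP read at their bound against 3 reads, but 11 of the 14 had passed the filter through SP alone. Their summed level was 2033 to 8356 CPM in SP and 3.43 to 8.84 CPM in NSP. Of 9 measured B and plasma cell genes 7 rose (median 8.05, or 7.89 at the bound), 5 of which had passed through SP alone, with 341 to 932 CPM in SP and 27.7 to 54.5 CPM in NSP. Of 10 measured pan-leukocyte genes 8 rose and 1 fell (median 4.29). PTPRC rose from 0.415 ± 0.480 to 245 ± 122 CPM (10.56 ± 1.75, limma-voom adjusted p = 0.0016). Over the other fits of all libraries its log2 fold change ran from 8.05 to 11.95.

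All 8 measured myeloid genes together, LYZ included, summed to 1297, 1589, 2457 and 1005 CPM in SP and to 61.7, 26.9, 70.5 and 48.6 CPM in NSP. LAPTM5, which B and T cells share, alone gave 797, 1250, 1990 and 669 CPM of the SP sums. LYZ alone gave 47.4, 11.5, 51.0 and 25.7 CPM of the NSP sums. Each sum thus follows mainly 1 gene in SP and leans on another in NSP. All 11 measured endothelial genes, all 7 stromal genes and 7 of 8 melanocyte genes rose too (medians 10.36, 7.76 and 4.78; 7.55 for stromal genes at the bound). Of these, 6 endothelial and 3 stromal genes had passed the filter through SP alone. Of 13 epithelial markers 11 fell and 0 rose (median -3.32). The part of these other cells in the level of each myeloid gene was not tested.

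**Figure D5:**
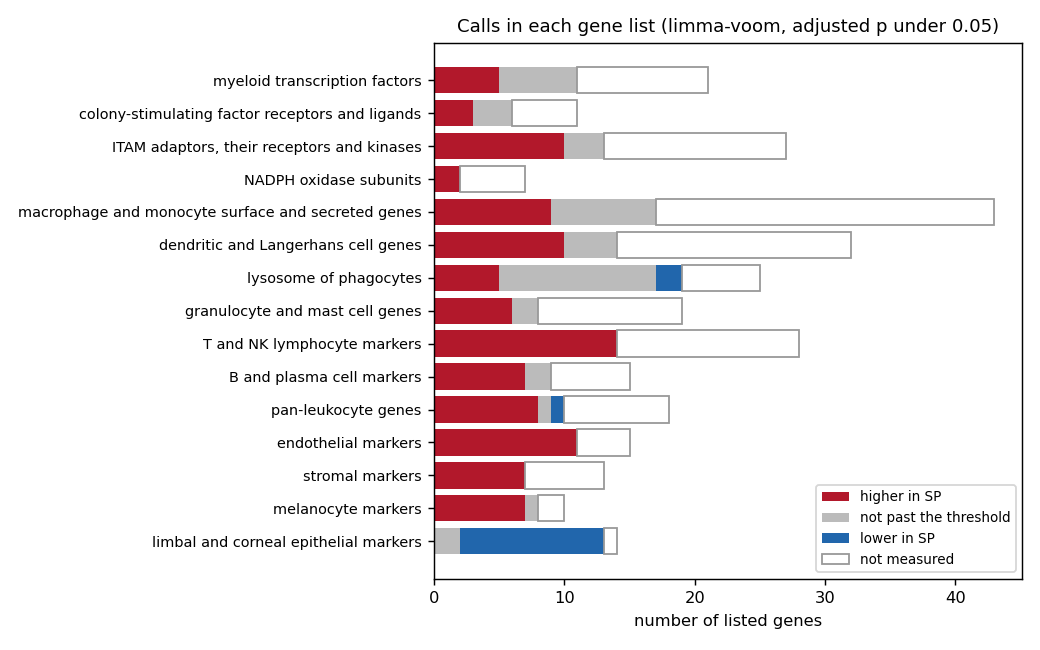
Number of genes in each fixed list that were higher in SP (red), not past the threshold (grey), lower in SP (blue) or not measured (white), by limma-voom at an adjusted p of 0.05. The ITAM, dendritic, T and NK and endothelial lists are mostly red among their measured genes, the lysosome list is mostly grey with 5 red and 2 blue, and the epithelial list has 11 of 13 measured genes blue.

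The genes with the most similar profile over the 8 libraries were found by the root mean square difference of centred log2(CPM + 0.5) values, which is smallest for the most alike. For SPI1 these were the adhesion gene VCAM1 (0.23), the granule proteoglycan gene SRGN (0.26) and the mitochondrial carrier gene UCP2 (0.28). For LAPTM5 they were the lymphotoxin gene LTB (0.32), CD53 (0.36) and the T and B cell receptor gene CD27 (0.40). For CD83 they included ZEB1 (0.43) and NCF4 (0.48). CSF1R was closest to GUCY1A3 (0.15), RGCC (0.25) and GPR162 (0.29).

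AIF1 had RNF125 (0.43), the myeloid receptor gene TREM1 (0.47) and HK3, a hexokinase of myeloid cells (0.49), as nearest genes by the same measure. FCER1G was closest to AFF3 (0.43), FYB (0.60) and TM4SF5 (0.67), and CYBB to GNAI1 (0.34), DNAJC6 (0.44) and DOCK11 (0.44). LYZ was closest to MYRFL (0.41), ABHD17B (0.48) and the bacterial lipoprotein receptor gene TLR2 (0.48). All 8 libraries enter each distance, so it mixes the contrast between SP and NSP with the differences within a group.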

How the data were processed

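The authors deposited 1 fixed-width text table of 163 fields in 6 stacked blocks, read here by character position. Its truncated headers show each library's group but not its sample or measure. The field used per library holds whole numbers, which were read as exon read counts as deposited. They give back the table's group means to within 0.05. Per the file headers, EDGE gave the fold changes and p-values of the deposited comparison, raw and corrected. A deposited field that is the same for all libraries was taken as exon length, which the headers do not name. The other 143 per-library fields were not used. Aligner, genome build and annotation: not given in the sources used here. Names are truncated at 8 characters, and 10004 entries (10.1% of reads) without a usable name stayed in totals and tests. RefSeq's gene table (mOryCun1.1) served for names and neighbours, and no sequences are shown.

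Counts were scaled with TMM factors computed here (trims of 30% and 5%). The filter asked for 0.508 CPM or more (worth 10 reads at median depth) in 4 libraries, and for 15 reads over all of them. Genes that passed were tested with limma-voom (limma 3.58.1, R 4.3.3, offset 0.5, group only, two-sided). Fields that touch hide the count columns from a reading by separators, and limma-voom was chosen in place of a quasi-likelihood count test, which the recovered counts could also have taken. The procedure was tested on simulated data. The table was read with pandas 2.3.3 and NumPy 2.4.6 under Python 3.11.15, and matplotlib 3.10.9 drew the figures.

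The genes and lists were chosen with earlier results of these data known. Named genes are the 9 genes, up to 3 called genes per list and direction by smallest p (any measured gene of the ITAM, oxidase and colony-stimulating factor lists), and the 3 genes most alike in profile. A few genes picked by this rule are not reported here, though tests and list counts include them. Folds against 0 reads are bounds at 3 reads over the group. Bounds and 95% intervals cover counting error only.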

Additional observations from a re-analysis of the deposited data

Results flagged for a closer look

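FCER1G in NSP replicate 3 lay far from the other NSP libraries: its gap to the nearest of them was 0.892 of the range of the group. It held 2.15 CPM there and 0 to 0.232 CPM in the other NSP libraries. The limit used is one that chance passes in about 1 of 20 groups of normal values. Levels resting on so few reads are not normal, and 16 groups were looked at (8 genes in SP and NSP). The same library held all 45 NSP reads of the C1Q genes and the highest NSP levels of AIF1, CYBB, CSF1R and LYZ, which were not flagged. Other genes went another way there. SPI1 had 0 reads in NSP replicate 3, and CD83 had its lowest NSP level (2.00 CPM). LAPTM5 was at 9.36 CPM there and highest in NSP replicate 4 (14.5 CPM). The cause was not tested.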

How the results depend on the processing

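The number of the 9 genes called higher in SP was 7 with median-ratio and upper-quartile factors, without the filter, with 10 reads in 4 libraries, with limma-trend and with quality weights. It was 5 to 7 when 1 library was left out, the 5 coming without NSP replicate 1, where AIF1 (3.57) and CYBB (2.63) no longer passed. Leaving out 1 library gave log2 fold changes of 7.46 to 9.03 for SPI1, 6.68 to 7.22 for LAPTM5, 5.29 to 5.88 for CD83, 3.99 to 4.6 for CSF1R, 3.44 to 4.46 for AIF1, 7.32 to 9.44 for FCER1G and 2.63 to 3.34 for CYBB. LYZ ran from -0.19 to 0.64, CSF3 from -0.39 to 0.25, IL34 from -0.02 to 0.65 and PLCG2 from -0.34 to 0.14. LYZ was at -0.15 without NSP replicate 2. CSF3 turned to 0.17 with quality weights and to 0.25 and 0.06 without SP replicate 1 and NSP replicate 3, IL34 to -0.02 without SP replicate 4 and PLCG2 to 0.14 without NSP replicate 3. The cause was not tested. Over all genes, 1758 rose and 1330 fell (56.9% of calls higher, median log2 fold change 0.11). With upper-quartile factors 1407 rose and 1650 fell (46.0%, median -0.07), and with median-ratio factors 1555 and 1497 (51.0%, median 0.00). Leaving out 1 library gave 1202 to 1997 rises and 975 to 1847 falls. Depth limits SPI1 and FCER1G most, with 11 and 49 reads over the NSP libraries. No paired analysis was possible because the columns carry no replicate number or sample of the labels.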
